A study of Homo sapiens with 7 samples.

Results

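The genes of the cytosolic ribosomal proteins were placed in the interaction clusters that the authors called from a Hi-C map of untreated DNMT1-AID cells. A gene was a member if it was protein-coding and autosomal and its symbol was RPL or RPS followed by digits and at most one suffix letter A, X or L, or was RPSA, RPLP0, RPLP1 or RPLP2, with kinase (RPS6K) and binding-protein (RPS19BP) symbols left out. The rule found 77 of 19126 protein-coding autosomal genes, 46 of the large subunit (RPL and RPLP) and 31 of the small subunit (RPS and RPSA). The rule reads symbols, gene type and chromosome, and no measured value enters it.

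Hi-C counts pairs of DNA pieces that lay close together in the nucleus. The study used DLD-1, a long-established line from a human colorectal adenocarcinoma, and made 7 libraries, 1 per group. All carried DNMT1-AID, a form of the maintenance DNA methyltransferase DNMT1 with a degron through which auxin triggers its degradation. Of these, 4 had no further change and were untreated, given auxin for 4 d, given auxin for 10 d, or given auxin for 4 d followed by a washout of 4 d. The other 3 also lacked DNMT3B and were untreated or given auxin for 4 d or 10 d. One of these, the untreated one, has a genotype label that names DNMT1-AID alone, and its group was taken from its title. Clusters were used from the untreated DNMT1-AID library. It held 114710963 contacts of autosomes and X, counting pairs within a chromosome from 100 kb on. By this count libraries ranged from 27345260 to 222645438 contacts. With 1 library per group, nothing below is tested against replicates, and genes are not replicates. Hi-C measures no RNA, so neither the activity of the genes nor the loss of DNMT1 or DNMT3B could be read from these values.

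The cytosolic ribosome translates messenger RNA and is built from ribosomal RNA and a fixed set of proteins, most of them encoded by a single gene that is active in nearly every dividing cell. Their messenger RNAs typically start with a run of pyrimidines, the 5′ terminal oligopyrimidine (TOP) tract, through which growth signals of the mTOR pathway set their translation. Most of these genes are short, many host small nucleolar RNAs (snoRNAs) in their introns, and they have left many processed pseudogenes across the genome. In Hi-C maps, clusters of A type hold active, gene-rich chromatin and clusters of B type hold inactive chromatin. The clusters used here are named A1, A2, V+VI, B4 and B2/B3, and labels and files leave the meaning of V+VI unstated.

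The start sites of 11 members are printed here so that the pyrimidine run at the start of A1 and A2 members can be set beside the starts of members in the other clusters and of a paralog. Sequences are from RefSeq (GRCh38.p14), 60 bases each, 5′ to 3′ on the gene's strand, with 45 bases before the start and 15 from it on. Capitals mark the unbroken run of C or T that begins at the annotated start. Where RefSeq lists several starts for a gene, the one with the longest run is shown. RPS19 and RPLP0 lie in A1, RPS6 and RPS3A in A2, RPL34, RPS7, RPL15 and RPS29 in V+VI, and RPL10L in B2/B3. RPS27 and its paralog RPS27L both lie in A1.
RPS19: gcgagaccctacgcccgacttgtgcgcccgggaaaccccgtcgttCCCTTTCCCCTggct
RPLP0: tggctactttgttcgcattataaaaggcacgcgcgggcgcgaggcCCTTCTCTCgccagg
RPS6: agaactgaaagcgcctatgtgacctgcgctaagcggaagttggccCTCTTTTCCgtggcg
RPS3A: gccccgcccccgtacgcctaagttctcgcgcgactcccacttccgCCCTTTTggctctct
RPL34: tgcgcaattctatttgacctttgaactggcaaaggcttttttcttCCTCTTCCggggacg
RPS7: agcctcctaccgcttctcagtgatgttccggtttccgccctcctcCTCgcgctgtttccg
RPL15: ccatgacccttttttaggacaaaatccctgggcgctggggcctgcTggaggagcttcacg
RPS29: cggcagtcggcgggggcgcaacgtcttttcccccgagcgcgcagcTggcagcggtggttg
RPL10L: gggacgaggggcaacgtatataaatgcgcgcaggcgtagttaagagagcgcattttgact
RPS27: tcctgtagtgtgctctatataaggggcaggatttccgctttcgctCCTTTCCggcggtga
RPS27L: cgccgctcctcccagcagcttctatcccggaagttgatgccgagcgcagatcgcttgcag

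The windows lie for RPS19 at chr19:41860210-41860269 (plus strand), RPLP0 at chr12:120201097-120201156 (minus strand), RPS6 at chr9:19380222-19380281 (minus strand), RPS3A at chr4:151099583-151099642 (plus strand), RPL34 at chr4:108620531-108620590 (plus strand), RPS7 at chr2:3575215-3575274 (plus strand), RPL15 at chr3:23916500-23916559 (plus strand), RPS29 at chr14:49598696-49598755 (minus strand), RPL10L at chr14:46651767-46651826 (minus strand), RPS27 at chr1:153990717-153990776 (plus strand) and RPS27L at chr15:63157463-63157522 (minus strand). The examples were chosen after their values had been seen. In those from A1 and A2 other than the RPS27 pair the run was 11 bases in RPS19, 9 in RPLP0, 9 in RPS6 and 7 in RPS3A, but a run of 0 also occurred in these clusters, in RPL10A, RPL27 and RPS26 of A1 and in RPL4, RPL9, RPL17, RPL32 and RPS28 of A2. In V+VI it was 8 in RPL34, 3 in RPS7 and 1 in RPL15 and RPS29. RPL10L and RPS27L had no pyrimidine at the annotated start, while RPS27 had a run of 7.

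Each gene took the cluster of the 50 kb bin that holds its leftmost coordinate. Of the 77 members, 64 lay in a clustered bin and 13 (16.9%) in none, beside 16.7% of all protein-coding autosomal genes. Of the 64 placed members, 31 (48.4%) lay in A1, where 26.2% of all placed genes lay. A2 held 25 members (39.1%, beside 37.1% of all placed genes) and V+VI held 7 (10.9%, beside 26.0%). B2/B3 held 1 member (1.56%, beside 9.13%) and B4 held 0 of 64 (beside 1.62%).

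The comparison with other genes of the same chromosomes asks how far these shares follow from the chromosomes on which the members sit. If each placed member had the cluster shares of the other placed genes of its chromosome, 29.0% would lie in A1, equal to 18.6 members where 31 were counted, a difference of 19.4 percentage points. For V+VI the same-chromosome share was 24.5% (15.7 members against 7 counted) and for B2/B3 7.99% (5.11 members against 1). For A2 it was 35.9% (23 members against 25), a difference of 3.13 points whose sign turned to -1.11 when genes were placed by their rightmost coordinate. Beside other genes of the same chromosomes no longer than the longest member (27723 bp), of which 35.4% lay in A1, the difference was 13.0 points. That comparison was added after the values had been seen, and it caps gene length without matching it to the members, whose median was 5011 bp. The part of gene length in the difference was not tested.

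**Figure D1:**
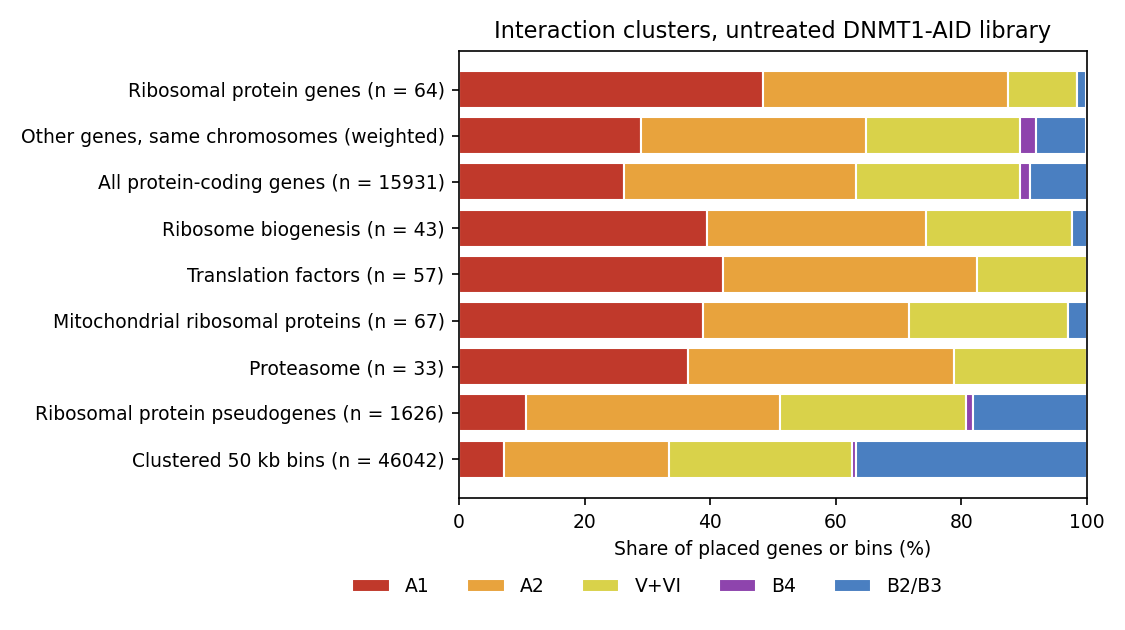
Share of placed genes or 50 kb bins (x axis, %) in each interaction cluster of the untreated DNMT1-AID library, by gene list (y axis). The A1 part is 48.4% for ribosomal protein genes, 29.0% for other genes of the same chromosomes weighted by members, 10.7% for ribosomal protein pseudogenes and 7.08% for all clustered bins.

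Both subunits showed this distribution. Of 38 placed large-subunit genes, 18 (47.4%) lay in A1, where the other genes of their chromosomes gave 30.3%. Among them were RPL3, RPL7A, RPL8, RPL10A, RPL12, RPL13, RPL13A, RPL18, RPL19, RPL23A, RPL26, RPL27, RPL29, RPL36, RPL41, RPLP0 and RPLP1. RPLP0 and RPLP1 belong to the acidic stalk that recruits elongation factors. Of 26 placed small-subunit genes, 13 lay in A1, where the same chromosomes gave 27.2%. Among them were RPS2, RPS3, RPS10, RPS15, RPS16, RPS19, RPS21, RPS25, RPS26, RPS27 and RPS27L. RPS19 is the gene most often mutated in Diamond-Blackfan anaemia, and RPS3 lines the entry of the messenger RNA channel.

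A2 held 14 large-subunit genes, RPL4, RPL5, RPL6, RPL9, RPL14, RPL17, RPL24, RPL28, RPL30, RPL31, RPL32, RPL35, RPL37A and RPL38, and 11 small-subunit genes, among them RPS3A, RPS6, RPS12, RPS13, RPS14, RPS20, RPS23, RPS24, RPS28 and RPSA. RPL5 binds the 5S ribosomal RNA and, outside the ribosome, the p53 regulator MDM2. RPS6 is the substrate of the S6 kinases, and RPS14 is the gene behind the anaemia of the 5q deletion syndrome. The authors merged A2 from 2 of 9 finer clusters, coded 6 and 7. Code 6 held 14 members (21.9% of those placed, beside 21.5% of placed genes) and code 7 held 11 (17.2%, beside 15.6%).

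The 7 members in V+VI were RPL7, RPL15, RPL34, RPL37, RPL39L, RPS7 and RPS29. RPL37 and RPS29 lay in the finer cluster coded 4 and the other 5 in that coded 3. Code 4 held 3.12% of placed members, beside 11.9% of placed genes, and code 3 held 7.81%, beside 14.1%. RPL15, on chromosome 3, lay deepest, 15 bins from the nearer end of a V+VI run of 1750 kb. The other 6 lay 0 or 1 bin from the end of runs between 150 and 350 kb, so the cluster changed or ended next to them or 1 bin further on. Short runs leave few bins far from an end. The median run was 200 kb in V+VI members, beside 600 kb in other V+VI genes of the same chromosomes. The median distance to the nearer end was 1 bin beside 2 in V+VI, 2 beside 4 in A1 and 1 beside 4 in A2. RPS29 is an example of a member at a run end. Its bin on chromosome 14 ended a V+VI run of 200 kb, and RPL36AL, a paralog of the X-linked RPL36A that the symbol rule leaves out, started in an A2 run of 5850 kb at 49618530, within 50 kb of the leftmost coordinate of RPS29 at 49570988.

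A finer division was read from the deposited codes for 16 and 32 clusters, a reading added after the main counts were known. The sources used here give no meaning to the order of the codes. At 16 clusters A1 was split mainly into codes 14 and 15. Code 15 held 21 members (32.8% of those placed, beside 15.8% of placed genes), among them RPS19, RPL13A, RPL3, RPS2 and RPL8, and code 14 held 11 (17.2%, beside 13.1%), among them RPS3, RPS27, RPL41 and RPL29 of A1 and RPL9 and RPL28 of A2. At 32 clusters, code 31 held 17 members (26.6% of those placed, beside 12% of placed genes). The other codes made up mainly of A1 genes were also above their share, but part of their members lay in A2. Code 30 held 10 members (15.6%, beside 10.6%), RPL28 of A2 among them. Code 29 held 9 (14.1%, beside 7.85%), among them RPL4, RPL6, RPL32 and RPL35 of A2. The excess in code 29 is thus not one of A1 members alone. These shares are set beside all placed genes and not beside those of the same chromosomes.

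The 13 members in no clustered bin fell in 2 kinds of place. RPL22 and RPL11 on chromosome 1, RPS27A on chromosome 2, RPL35A on chromosome 3, RPLP2 and RPL27A on chromosome 11 lay between 1100 and 35600 kb from the nearest clustered bin, in stretches that the clustering leaves out, and RPL21 lies on chromosome 13, which has no clustered bin. On chromosome 1 the first clustered base is 41750001 and on chromosome 11 it is 9750001. RPL3L, RPL23 and RPS15A lay 1 bin from a clustered one, RPS9 lay 200 kb away and RPS18 250 kb. The nearest clustered bin was A1 for RPL3L, RPL23 and RPS18 and A2 for the rest of those with one. Assigning each to it gave 34 members in A1 and 34 in A2.

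A paralog and the gene it resembles could be compared only where both were placed. Their clusters differed for RPL7 and RPL7L1 and for RPL26 and RPL26L1. RPS27 on chromosome 1 and RPS27L on chromosome 15, whose product can replace RPS27 in ribosomes, both lay in A1, RPS27L in a run of 1 bin (50 kb) that gave way to A2 at its rightmost coordinate. RPL3L, the form used in heart and skeletal muscle, lay 1 bin from an A1 bin on chromosome 16, and RPL3 lay in A1 on chromosome 22. RPL10L, an intronless copy of the X-linked RPL10 used in male germ cells, was the member in B2/B3, 17 bins inside a run of 3600 kb on chromosome 14 with 2 genes, itself included, starting within 10 bins of it. RPL39L, a relative of the X-linked RPL39 that is used in male germ cells, lay in V+VI on chromosome 3. Among paralogs with symbols outside the rule, RPL7L1 lay in A1 while RPL7 lay in V+VI, RPL26L1 lay in A2 while RPL26 lay in A1, RPL22L1 lay in A2 while RPL22 was not placed, and RPL36AL lay in A2. Without the 4 paralogs whose symbol ends in L, the counts were 30 in A1, 25 in A2, 6 in V+VI and 0 in B2/B3.

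The members were spread over 20 autosomes, and chromosomes 7 and 21 had none. Chromosome 19 held the most, 12, or 8.27 per 1000 protein-coding genes. Of the 11 placed there, 8 (72.7%) lay in A1, among them RPS15, RPL36, RPS16, RPS19, RPL18 and RPL13A, beside 52.0% of the other placed genes of that chromosome. The other 3 lay in A2, RPS28 and RPL28 among them. Chromosome 3 was next with 8 members, or 7.5 per 1000 genes, and had a different distribution. RPL29 lay in A1, RPL32, RPSA, RPL14 and RPL24 in A2, RPL15 and RPL39L in V+VI and RPL35A in no clustered bin, so that 14.3% of the placed members lay in A1 beside 17.4% of the other genes.

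On 12 of the 19 chromosomes with a placed member the A1 share was higher in members than in the other genes, on 6 it was lower, and on chromosome 18 both were 0. Of the 6 that were lower, 5 had no member in A1, namely chromosomes 2, 4, 5, 10 and 14. The numbers behind each chromosome are small: 13 chromosomes had at least 3 placed members, and the A1 share was higher in members on 9 of these. On chromosome 17 it was 4 of 5 members (RPL26, RPL23A, RPL19 and RPL27, with RPL38 in A2) beside 64.0% of other genes, and on chromosome 12 it was 3 of 4 (RPS26, RPL41 and RPLP0, with RPL6 in A2) beside 33.1%. On chromosome 4, where 5.65% of other genes lay in A1, RPL9 and RPS3A lay in A2 and RPL34 in V+VI. Without chromosome 19 the difference in A1 share from the same chromosomes was 19.2 points, close to the 19.4 points with it.

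**Figure D2:**
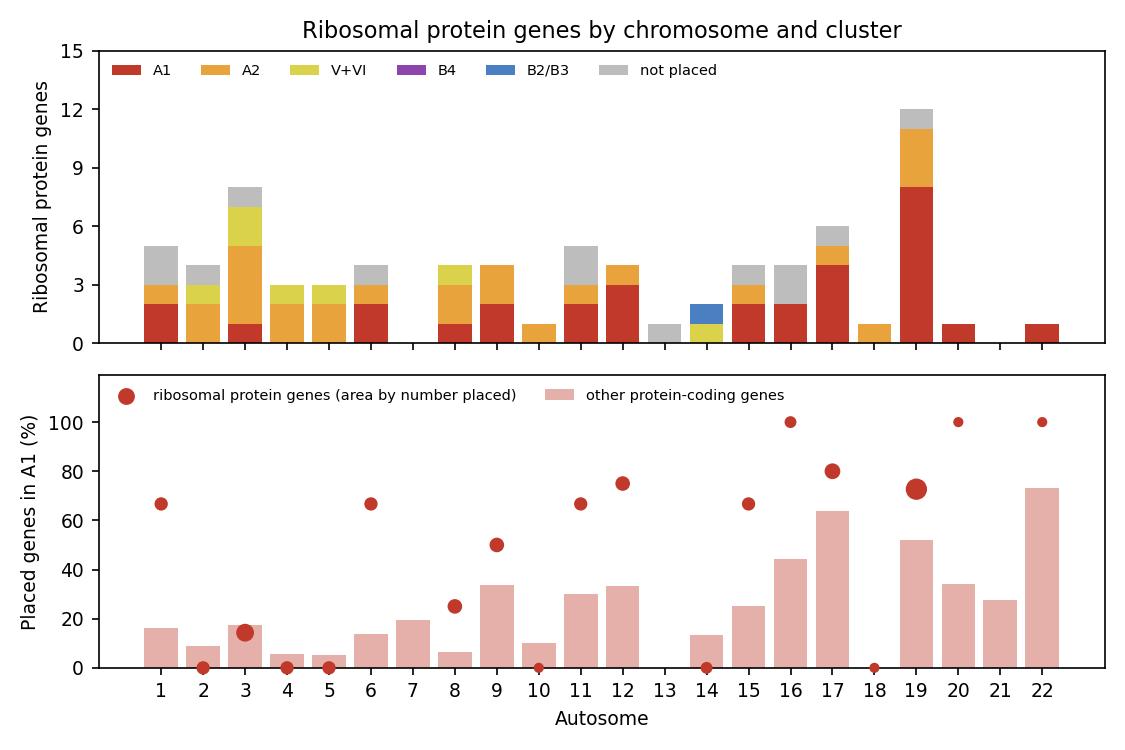
Top, number of ribosomal protein genes on each autosome (y axis, genes), coloured by cluster, grey where the gene lay in no clustered bin. Bottom, share of placed genes in A1 (y axis, %) for other protein-coding genes (bars) and ribosomal protein genes (points, larger where more were placed); on chromosome 19 the values are 52.0% and 72.7%, and on 6 chromosomes the point is at 0.

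The number of protein-coding genes starting within 10 bins (500 kb) either side, the gene itself included, had a median of 14 in all placed members and also 14 in other genes of the same chromosomes. It differed between clusters. A median of 34 genes started within that distance of the A1 members, with a range of 5 (RPLP1) to 59 (at RPL13A), and the median of other A1 genes of the same chromosomes was 29. For A2 members the median was 10, from 2 (RPS23) to 51 (RPL28), beside 12 for other A2 genes. For V+VI members it was 9, from 5 to 12, beside 7. The ranges of A1 and V+VI members overlap between 5 and 12, through RPLP1 and RPS27L in A1. Other genes of these clusters also differed, with medians of 29 and 7, so the contrast is not particular to the members. Ranges of the other genes were not compared.

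The unbroken run of A1 bins that held a member had a median length of 1000 kb, beside 1050 kb for other A1 genes of the same chromosomes. The longest held RPL36 on chromosome 19, with 4650 kb, and the shortest held RPLP1 and RPS27L on chromosome 15, with 50 kb each. In A2 the median run was 700 kb beside 1150 kb, with 3350 kb for RPL32 and RPL35 and 50 kb for RPS23, RPL37A and RPL28. For the members in A2 the nearest A1 bin lay 50 kb away for RPL4, RPL6 and RPL28 and 147300 kb away for RPS3A on chromosome 4, the range over the 24 on chromosomes that have A1 bins. When genes were placed by their rightmost coordinate, RPL4 and RPL28 changed to A1, RPL37A to V+VI and RPS27L to A2. RPL3L and RPL23, in no clustered bin by the leftmost coordinate, fell in A1 by the rightmost. The ends of 13 members lay in different bins, and the count for other genes is not given here.

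**Figure D3:**
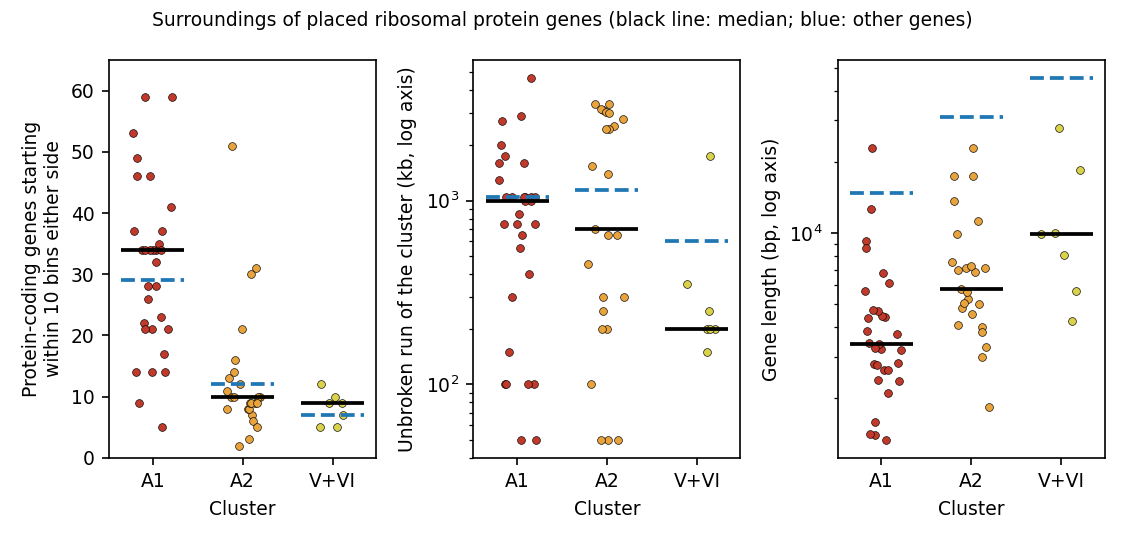
Placed ribosomal protein genes in A1, A2 and V+VI (points, one per gene) by the number of protein-coding genes starting within 10 bins, the length of the cluster's unbroken run (kb, log axis) and gene length (bp, log axis). Black lines are member medians and dashed blue lines are medians of other genes of the same cluster and chromosomes; member medians of length, 3388, 5823 and 9909 bp, lie below the blue lines in all 3 clusters.

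The members are short. Their median length was 5011 bp, from 772 bp (RPL10L) and 1335 bp (RPL41) to 27723 bp (RPS29), beside a median of 23282 bp for other genes of the same chromosomes. A1 members had a median of 3388 bp, A2 members 5823 bp and V+VI members 9909 bp, and other genes of these clusters had 14765, 30866 and 45210 bp.

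The related gene lists describe whether a similar placement is seen in other parts of the protein synthesis machinery. Of 57 placed genes with symbols starting EIF or EEF and a digit, 24 (42.1%) lay in A1 and 10 (17.5%) in V+VI. This list stands for the translation initiation and elongation factors, but the pattern also admits other genes so named, such as kinases of these factors. Of 43 placed ribosome biogenesis factors, 17 (39.5%) lay in A1, and of 67 placed mitochondrial ribosomal proteins (MRPL and MRPS), which are encoded in the nucleus, 26 (38.8%). Of 33 placed proteasome subunits, a list outside translation, 12 (36.4%) lay in A1. Their differences from the other genes of their own chromosomes were 15.5, 15.8, 13.4 and 5.49 points, beside 19.4 for the ribosomal protein genes. V+VI held 23.3% of the biogenesis factors, 25.4% of the mitochondrial ribosomal proteins and 21.2% of the proteasome genes, beside 10.9% of the ribosomal protein genes. None of these differences between lists was tested.

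Pseudogenes of ribosomal protein genes were counted too, and they include those of X-linked parents that are not members, such as RPL36A with 49 and RPL39 with 40. Processed pseudogenes arise when messenger RNA is copied back into the genome at dispersed sites. Of 1892 autosomal ribosomal protein pseudogenes, 1626 were placed, and 174 (10.7%) lay in A1, 658 (40.5%) in A2, 480 (29.5%) in V+VI, 19 (1.17%) in B4 and 295 (18.1%) in B2/B3. Of all clustered bins, 7.08% were A1, 26.3% A2, 29.2% V+VI, 0.612% B4 and 36.8% B2/B3. RPL21 has the most, 134, of which 117 were placed, 12 in A1 and 21 in B2/B3. RPL23A follows with 94, of which 66 were placed, 9 in A1 and 12 in B2/B3, while the RPL23A gene itself lay in A1.

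Of the 77 members, 27 (35.1%) held at least 1 annotated snoRNA gene within their bounds, on either strand, beside 2.64% of all protein-coding autosomal genes. Together they held 58 snoRNA genes. RPL3, RPL4, RPL7A, RPL13A and RPL23A were among those with the most, 4 each, and of these 5 RPL4 lay in A2 and the others in A1. The share was 11 of 31 in A1 (35.5%) and 11 of 25 in A2 (44.0%), and in V+VI it was 1 of 7, RPL37. For other genes it was 2.12% in A1, 3.08% in A2 and 2.79% in V+VI. Of the members in no clustered bin, 4 of 13 (30.8%) held a snoRNA gene, beside 1.92% of other such genes.

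Promoter sequences (300 bases, 250 before the start and 50 from it on) were matched for 60 members, with 73 entries. RPL5, RPL39L, RPL37, RPS20, RPL7, RPL30, RPL8, RPL3L, RPS2, RPS15A, RPL23A and RPL23 were among those without an entry. Several entries give a gene more chances to qualify, so the first entry is given too. A TOP-like start was counted where a start had C as its first base and at least 5 bases of C or T without a break, a definition set after the members' sequences had been seen. It was present at an annotated start of 43 of 60 members (71.7%), beside 6.22% of the 15101 protein-coding autosomal genes with an entry. By the first entry of each gene alone it was 40 of 60 (66.7%) beside 4.57%. The run from the start had a median of 7 bases in members and 0 in other genes, with the longest in RPL7A (16 bases), RPS24 (14) and RPLP2 (13).

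The TOP-like start was found in 18 of 25 A1 members (72.0%) and 15 of 21 A2 members (71.4%), in all 9 of the members with no clustered bin and in 1 of 4 V+VI members, RPL34. RPL10L and RPS27L, the paralogs with an entry, did not have it. Nor did RPL4, RPL6, RPL9, RPL17, RPL32 and RPS28 in A2 or RPL3, RPL10A, RPL19, RPL27, RPS15 and RPS26 in A1. The count depends on the exact annotated start, since a start placed a few bases away moves the first base off the run. In related lists it was found in 12 of 53 genes of the EIF and EEF list (22.6%), 6 of 69 mitochondrial ribosomal proteins (8.7%) and 1 of 34 proteasome genes (2.94%).

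**Figure D4:**
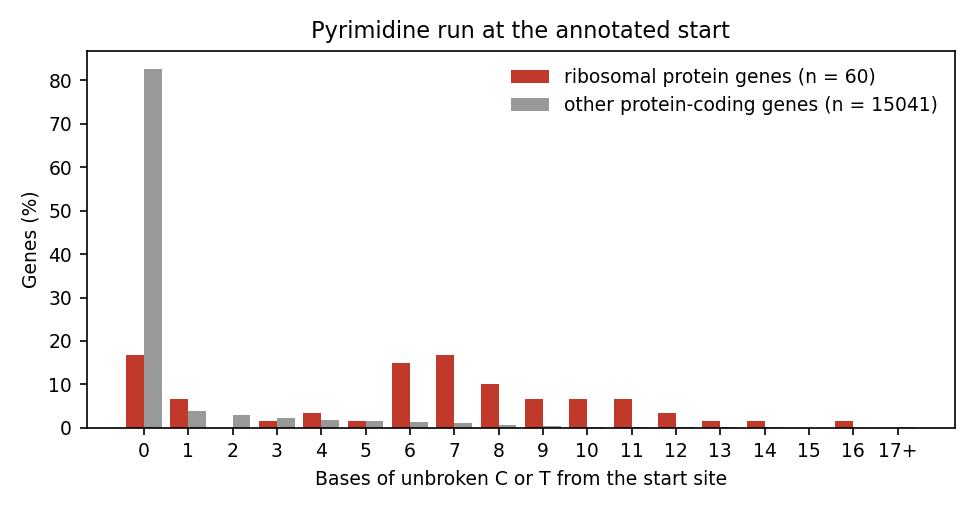
Number of bases of unbroken C or T from the annotated start (x axis, longest of a gene's starts) and share of genes (y axis, %) for 60 ribosomal protein genes and 15041 other protein-coding genes. The run was 0 in 16.7% of the former and 82.7% of the latter, and 6 or 7 bases in 15% and 16.7% of ribosomal protein genes against 1.44% and 1.02% of others.

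Other motifs were searched as exact letters on both strands of the 300 bases. CCGGAAG, a core bound by ETS factors such as GABPA, was in 21 of 60 members (35%), beside 16.7% of all genes with an entry, and in 10 of 25 A1 members and 5 of 21 A2 members. Among other genes it was in 20.2% of those in A1 and 16.8% of those in A2. Members in no clustered bin had it in 5 of 9 (55.6%), beside 14.7% of other such genes. In V+VI it was in 1 of 4 members, beside 16.9% of other genes. AAGATGGC, a core of the YY1 motif, was in 6 of 60 (10.0%, beside 4.65%). GGGCGG, the core of the SP1 motif, was in 34 of 60 (56.7%, beside 64.6%), and TATAAA was in 6 of 60 (10.0%, beside 12.5%). The letters TATA, which TATAAA contains, lay between 40 and 16 bases before an annotated start on the gene's strand in 10 of 60 (16.7%, beside 9.5%), among them RPS27, RPLP0 and RPL10L in the windows printed above. The median number of CG dinucleotides per promoter was 24 in members and 22 in other genes, 25 in A1 members beside 25 in other A1 genes and 22 in A2 members beside 24. RPL10L, in B2/B3, had 25, where the other genes of B2/B3 had a median of 6. A match describes letters in this window and does not show binding.

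Across the 7 libraries only the contacts of the members' chromosomes can be given, since clusters were used from 1 library. For each chromosome the trans share is its contacts with other chromosomes over all its contacts, counting pairs within a chromosome from 100 kb on. Weighted by the number of members on each chromosome, it was 38.2% in untreated DNMT1-AID cells, 37.2% after 4 d of auxin, 44.7% after 10 d and 40.7% after washout. In knockout cells it was 43.3% untreated, 42.6% after 4 d and 48.2% after 10 d. Weighted by all protein-coding genes it was 37.4%, 36.2%, 43.7%, 39.8%, 42.4%, 41.6% and 47.4% in the same order. The member-weighted share was higher than the gene-weighted one by 0.824 to 0.997 points in all 7 libraries, and by 0.466 to 0.68 points with balanced sums. The same chromosome weights were applied to each library, so these 7 differences are not separate observations about the members. Among chromosomes with a member, chromosome 2 had the lowest share and chromosome 22 the highest in each of the 7 libraries, 28.3% and 53.3% in untreated DNMT1-AID cells. These are values of whole chromosomes and not of the genes on them.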

How the data were processed

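The submitters' processing notes name BWA and hg38 for these Hi-C libraries of DLD-1 cells. Versions, filters and the balancing and clustering settings were not given in the sources used here. In untreated DNMT1-AID cells, the authors deposited cluster names of 50 kb bins and cluster codes for several numbers of clusters. The 5 names merge 9 codes, and the bins left out by one file carry a code of their own in the other. The deposited tables also give raw contact counts, whole numbers that are not normalised, and sums of the authors' matrix-balanced signal.

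Gene positions, promoters and snoRNA genes came from RefSeq (GRCh38.p14, the assembly of hg38). Leftmost coordinates placed the genes, and 1-based positions are printed. Cluster shares of members were set beside those of other placed genes of each chromosome, weighted by members. Depth was 27345260 to 222645438 contacts per library, with pairs within a chromosome counted from 100 kb on and shorter ones left out. Clusters carry no error estimate, and no test was made. Placement and weighting were checked on simulated data. The members and gene lists were chosen with earlier results of these data known. The TOP-like definition, the TATA window, the pseudogene and snoRNA counts, the finer codes and the printed windows were chosen after values here had been seen. Genes were named by rule: members outside A1, members not placed, paralog pairs, shared bins, the chromosome with most members and extremes of run length, others within their cluster. Some members are counted but their own results are not reported here. Alternatives were other coordinates, neighbouring bins, symbol patterns, comparison genes, chromosome weights and balanced sums. Python 3.11.15, pandas 2.3.3, NumPy 2.4.6 and SciPy 1.17.1 were used. The tables by chromosome arm were used for arm lengths alone.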

Additional observations from a re-analysis of the deposited data

How the results depend on the processing

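The count of members in A1 ranged from 30 to 34 and the A1 difference from the comparison genes from 13.0 to 22.3 points over the alternatives tried, so the direction was kept in each. For A2 the difference ranged from -1.11 to 6.62 points. Without the paralogs ending in L, B2/B3 held 0 members. The B4 difference was -2.57 points, -2.65 within chromosome arms, -2.59 by start site and -0.723 without chromosome 19. Placement by start site kept the leftmost coordinate for genes without a promoter entry. These were 17 of the 77 members and all but 15101 of the 19126 genes. With chromosomes weighted equally the mean trans share was 44.4%, 36.9% and 40.6% in DNMT1-AID cells at 10 d, 4 d and washout and 42.3% and 43.1% in knockout cells at 4 d and untreated. With balanced sums it was 44.3%, 36.8%, 37.8% and 40.2% in DNMT1-AID cells at 10 d, 4 d, untreated and washout and 47.9%, 42.2% and 42.8% in knockout cells at 10 d, 4 d and untreated. The cause of these shifts was not tested. Assigning unplaced genes to the nearest clustered bin and limiting gene length were added after seeing the data. No paired analysis was possible because each group held 1 library, so no groups share more than 1 replicate number. The layout of auxin times across both genotypes was not tested. Placement rests on 50 kb bins of 1 clustering, so a gene at the end of a run can change cluster within the length of 1 bin.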
